A study of Mus musculus with 6 samples.

Results

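The genes described here make, inactivate and sense prostaglandins. They are the 2 cyclooxygenase genes Ptgs1 and Ptgs2, the terminal synthase genes Ptgis, Ptges, Tbxas1, Ptgds and Hpgds, the inactivating enzyme gene Hpgd, and the receptor genes Ptgir and Ptger4. Members were the genes reached by matching each array probe's RefSeq accession to a symbol, which gave 12 probes for the 10 genes, out of 55681 non-control probes. All 10 were among the 25777 genes and unnamed transcripts tested, and all 12 probes stood well above background on all 6 arrays.

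The samples were stromal vascular fractions, the non-adipocyte cells that collagenase releases from fat, prepared from the mesenteric fat of male C57BL/6JHamSlc-ob/ob mice. Propolis mice, with 3 samples, had received an ethanol extract of Brazilian propolis, a resin collected by bees, at 100 mg/kg into the peritoneum 2 times a week for 12 weeks. Vehicle mice, with 3 samples, had received dilute DMSO and ethanol over the same 12 weeks. The labels call the samples of each group biological replicates. Both groups lack functional leptin and become obese, so no lean mice enter the comparison, and the labels state neither an age nor how many mice a sample holds. RNA was hybridised to 1-colour arrays, and a level is the log2 of a gene's intensity over the 75th percentile of its own array. A level can be compared between arrays for one gene, but not between genes.

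Prostaglandins are short-lived lipid signals. Phospholipases release arachidonic acid from membranes, and a cyclooxygenase, which is constitutive in many cells (Ptgs1) or induced by inflammatory signals and injury (Ptgs2), turns it into prostaglandin H2. A terminal synthase then decides the product, which is prostacyclin (Ptgis), prostaglandin E2 (Ptges), prostaglandin D2 (Ptgds and Hpgds) or thromboxane (Tbxas1), and each product acts on its own G protein-coupled receptors near the cell that made it. In adipose tissue prostaglandin E2 is known to restrain lipolysis, and prostacyclin relaxes vessels and promotes the differentiation of fat cell precursors.

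Mesenteric fat borders the gut, the pancreas and lymph nodes, and marker genes of acinar, intestinal and B cells differed between arrays. The source of these transcripts was not tested. The 75th percentile of intensity ran from 511.6 to 729.0 in propolis arrays and from 459.4 to 621.1 in vehicle arrays, and 61.1% to 66.7% of spots stood well above background. Pancreatic acinar genes averaged -3.79 to -3.30 in propolis arrays, against -3.06, 4.90 and -2.66 in vehicle 1, 2 and 3. Intestinal epithelial genes averaged -3.28 to -0.10 in propolis arrays, against -2.37, -2.18 and 5.09 in vehicle 1, 2 and 3. B cell genes averaged -2.41 to -1.39 in propolis arrays and 0.40, 2.45 and -1.64 in vehicle 1, 2 and 3. Mesothelial genes, which mark the lining of the peritoneum, averaged 1.90 to 2.85 in propolis arrays and -0.14 to 1.19 in vehicle arrays. Propolis 1, propolis 2, vehicle 1 and vehicle 2 shared slide 1 and scan 1, while propolis 3 and vehicle 3 shared slide 2 and scan 2. T cell genes averaged 0.88 to 1.74 in propolis arrays and 1.27 to 2.38 in vehicle arrays, and eosinophil genes -2.83 to -2.68 in propolis arrays and -2.21 to -1.91 in vehicle arrays. Adipose progenitor genes, which label the stromal cells the fraction should hold, averaged 4.68 to 4.90 in propolis arrays and 4.73 to 5.02 in vehicle arrays.

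**Figure D1:**
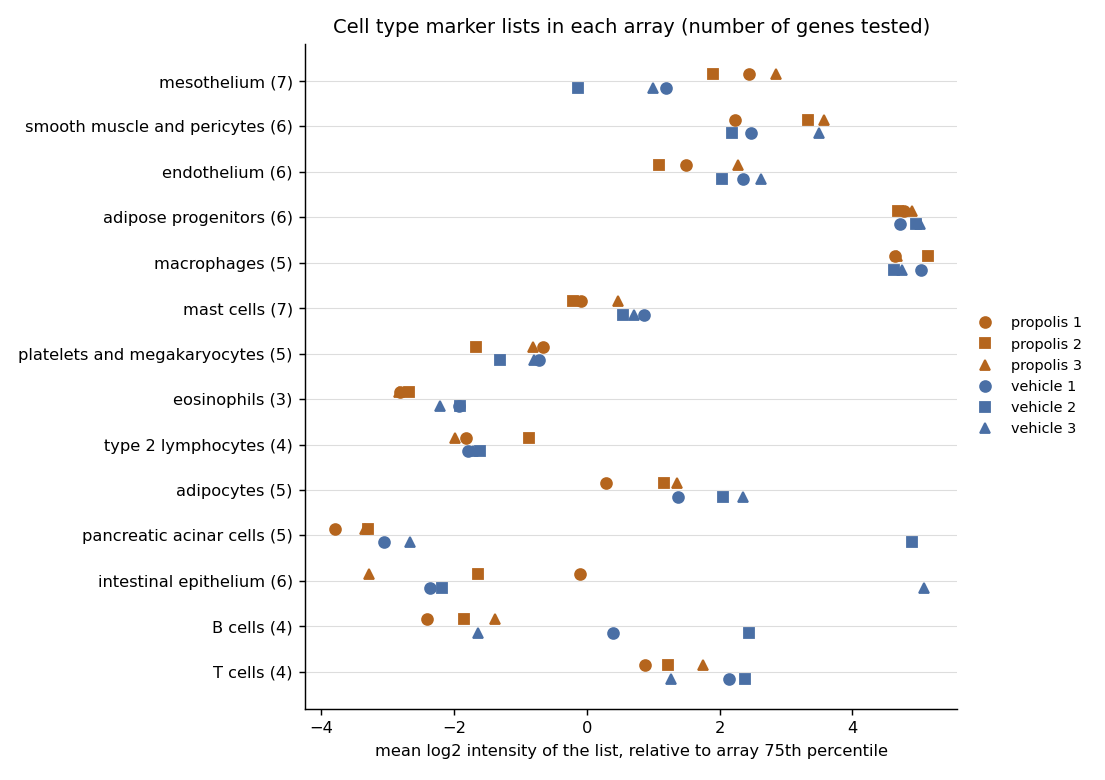
Mean log2 intensity, relative to the array's 75th percentile, of 14 cell type marker lists in each of the 6 arrays; each point is 1 array and the number of genes tested is in parentheses. Vehicle 2 stands apart for acinar genes at 4.90 and vehicle 3 for intestinal genes at 5.09, and the mesothelial list has all propolis arrays to the right of the vehicle arrays.

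The comparison of propolis with vehicle asks which transcripts of these cells differ after the treatment. Among the prostaglandin genes, 1 of 10 passed the test, the prostacyclin synthase gene Ptgis, with a 2.89-fold higher mean in propolis. That call was lost when any 1 of the 6 arrays was left out. Ptgs2 and Ptgs1 had higher means by 5.22-fold and 1.68-fold, and the prostacyclin receptor gene Ptgir had a lower mean, but none of these 3 passed. Calls were made with limma at a Benjamini-Hochberg adjusted p under 0.05 over all genes tested, and 0.834% of all genes were called in either direction, with 0.722% higher. At an unadjusted p under 0.05 stood 4 of the 10, 3 higher and 1 lower, against 11.7% of all genes, 7.24% higher and 4.48% lower. The groups did not overlap for 6 of the 10, 4 higher and 2 lower in propolis, against 17.4% of all genes, 10.8% higher and 6.62% lower. The median difference of the 10 was 0.13, and that of all genes tested was -0.0041. With 3 arrays against 3 an exact permutation test cannot give a p below 0.1.

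**Figure D2:**
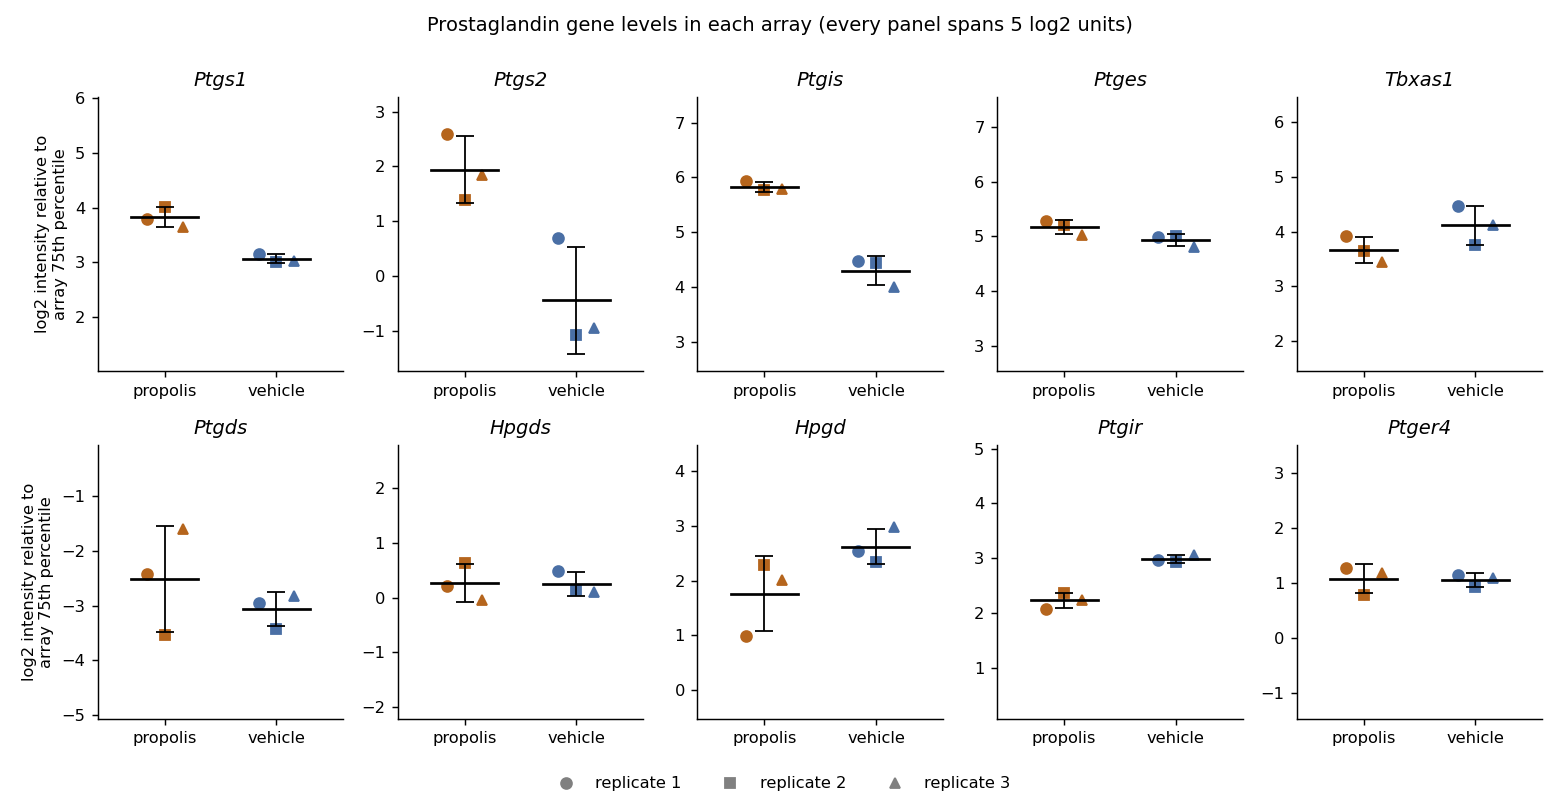
Level of each of the 10 genes, as log2 intensity relative to the array's 75th percentile, in the 3 propolis and 3 vehicle arrays; points are arrays, horizontal lines are means and bars are SDs. Ptgis, Ptgs1, Ptgs2 and Ptges have every propolis array above every vehicle array, and Ptgir and Hpgd have every propolis array below.

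Both cyclooxygenase genes stood higher in propolis. Ptgs2, the inducible form, was at 2.60, 1.39 and 1.84 in propolis 1, 2 and 3, against 0.69, -1.07 and -0.94 in vehicle 1, 2 and 3. Every propolis array lay above every vehicle array, and vehicle 1 lay closest to the propolis arrays. The means were 1.94 ± 0.61 in propolis and -0.44 ± 0.98 in vehicle (SD, n = 3 each), a log2 difference of 2.38 with a 95% confidence interval of 1.06 to 3.71 (limma adjusted p = 0.146). Ptgs2 had the largest spread within vehicle among the 10 genes. The difference was 2.18 on slide 1 and 2.78 on slide 2, and the slide-blocked adjusted p was 0.141. It was 1.21 with array weights and 1.26 with vehicle 2 and vehicle 3 left out together, which leaves vehicle 1 alone.

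Ptgs2 belongs to the immediate early genes, which cells switch on within minutes of stimulation or of tissue dissociation. Of the 12 immediate early genes listed, 0 passed in limma and 1 stood at an unadjusted p under 0.05, against 0.834% and 11.7% of all genes. The list averaged 4.41, 3.86 and 4.80 in propolis 1, 2 and 3 and 4.48, 3.75 and 4.04 in vehicle 1, 2 and 3, so the groups overlapped. Ier3, a stress-induced survival gene, was the one under 0.05, with a difference of 1.47 (adjusted p = 0.208). Btg2, an antiproliferative gene, differed by 0.50 (adjusted p = 0.473) and Atf3, a stress transcription factor gene, by -0.58 (adjusted p = 0.758). The part of dissociation or of any one cell type in the Ptgs2 values was not tested.

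Ptgs1, the constitutive form, was at 3.79, 4.02 and 3.66 in propolis 1, 2 and 3, against 3.16, 3.02 and 3.03 in vehicle 1, 2 and 3. The vehicle arrays lay within 0.15 of each other, and all propolis arrays lay above them. The log2 difference was 0.75 with a 95% confidence interval of 0.33 to 1.17 (limma adjusted p = 0.147, and 0.0966 with slide as a block), at 0.81 on slide 1 and 0.62 on slide 2. With array weights, which called 3231 genes against 215 in the main comparison, Ptgs1 passed (adjusted p = 0.0133). It passed in no other setting. Mast cells and platelets are rich in Ptgs1 in the body. Mast cell genes averaged -0.20 to 0.46 in propolis and 0.55 to 0.86 in vehicle. Of the 7 tested, 6 had lower means in propolis, 5 of them at an unadjusted p under 0.05 against 4.48% of all genes, 0 passed after adjustment, and Hdc had a higher mean. Platelet and megakaryocyte genes averaged -1.67 to -0.66 in propolis and -1.31 to -0.72 in vehicle. The part of these cells, or of any other cell type, in the Ptgs1 values was not tested.

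The promoters of these isoenzyme genes are shown because both genes had higher means in propolis while they are regulated differently in other settings. The windows run from 250 bases before to 30 after the RefSeq start on the + strand of GRCm38.p6, and capitals mark matches, on either strand, to TTGCGCAA (the CCAAT/enhancer binding protein palindrome), TGACGT (a cyclic AMP response element half-site), CACGTG (an E-box), TATAAA (a core promoter element) or the kappa B consensus.
Ptgs2, chr1:150099781-150100060: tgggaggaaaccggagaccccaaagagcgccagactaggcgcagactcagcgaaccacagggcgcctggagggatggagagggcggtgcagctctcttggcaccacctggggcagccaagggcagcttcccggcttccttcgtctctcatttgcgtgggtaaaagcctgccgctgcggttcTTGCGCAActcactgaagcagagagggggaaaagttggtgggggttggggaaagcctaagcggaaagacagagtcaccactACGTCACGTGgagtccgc
Ptgs1, chr2:36230176-36230455: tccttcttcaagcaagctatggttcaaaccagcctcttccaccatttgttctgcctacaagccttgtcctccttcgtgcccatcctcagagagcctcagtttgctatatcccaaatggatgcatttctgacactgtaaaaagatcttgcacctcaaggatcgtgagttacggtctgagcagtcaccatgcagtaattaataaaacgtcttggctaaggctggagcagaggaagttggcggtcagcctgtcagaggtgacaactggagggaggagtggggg
The Ptgs2 window held the TTGCGCAA palindrome, starting at position -69, and an overlapping half-site and E-box, starting at positions 13 and 17. Positions are counted from the RefSeq start, and where transcription starts in these cells was not tested. The Ptgs1 window held none of the 5 motifs. Among 32851 mouse promoter windows of the same length, 0.180% held TTGCGCAA, 7.26% TGACGT, 6.79% CACGTG, 13.1% TATAAA and 4.22% the kappa B consensus. These are letter matches and say nothing about binding in these cells. RefSeq promoter entries were matched for 9 of the 10 genes, and Ptgis has none in the table used.

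Of the 5 terminal synthase genes, Ptgis rose and the other 4 did not pass. Ptgis encodes the cytochrome P450 enzyme that makes prostacyclin, a vasodilator and inhibitor of platelets. It was at 5.93, 5.77 and 5.79 in propolis 1, 2 and 3, against 4.47, 4.43 and 3.99 in vehicle 1, 2 and 3. The 3 propolis arrays lay within 0.16 of each other, and the groups were separated by more than the spread within either. The means were 5.83 ± 0.09 in propolis and 4.30 ± 0.26 in vehicle (SD, n = 3 each), a log2 difference of 1.53 with a 95% confidence interval of 1.06 to 2.00 (limma adjusted p = 0.0320). With slide as a block the adjusted p was 0.0299, and the difference was 1.40 on slide 1 and 1.79 on slide 2. On slide 1 alone, 2 arrays against 2, the adjusted p was 0.0780, and without the filter on dim probes, which adds genes to the adjustment, it was 0.0608.

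The call on Ptgis was lost when any 1 of the 6 arrays was left out. Without propolis 1, 2 or 3 the adjusted p was 0.0994, 0.131 and 0.0684, and without vehicle 1, 2 or 3 it was 0.118, 0.134 and 0.0671. Across these settings the log2 difference of Ptgis lay between 1.38 and 1.62. It was 1.36 with vehicle 2 and vehicle 3 left out together (adjusted p = 0.554).

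Prostacyclin synthase is made by vascular cells, mesothelium and fibroblasts, whose marker lists did not share a direction. Of 7 mesothelial genes all had higher means in propolis. At an unadjusted p under 0.05 stood 5, and limma called 2, against 7.24% and 0.722% of all genes higher. The 2 were Wt1 and Bnc1, transcription factor genes that differed by 1.98 (adjusted p = 0.0320) and 2.87 (adjusted p = 0.0299). Krt19 differed by 0.14 (adjusted p = 0.976), and its groups overlapped. Smooth muscle and pericyte genes averaged 2.23 to 3.57 in propolis and 2.18 to 3.49 in vehicle. All 6 endothelial genes had lower means, with list averages of 1.09 to 2.28 in propolis and 2.03 to 2.62 in vehicle. Of 6 adipose progenitor genes 5 had lower means, and 0 were at an unadjusted p under 0.05, against 11.7% of all genes. Pdgfra differed by -0.11 (adjusted p = 0.888), and Ly6a, the 1 with a higher mean, by 0.37 (adjusted p = 0.787). The part of each cell type in the Ptgis values was not tested, and in a bulk sample more cells of a type and more RNA per cell cannot be told apart.

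The 5 genes with symbols whose array profile lay closest to that of Ptgis, each centred on its own mean, were Fzd1, Ak1, Psd, Usp53 and Id4. Their root mean square distances over the 6 arrays were 0.107, 0.134, 0.140, 0.151 and 0.164 log2 units, among 15771 symbols searched. Fzd1, a Wnt receptor gene, was at 4.46, 4.07 and 4.06 in propolis 1, 2 and 3, against 2.67, 2.76 and 2.43 in vehicle 1, 2 and 3. Ak1, an adenylate kinase gene, was at 4.72, 4.64 and 4.48 in propolis arrays, against 3.07, 3.13 and 3.01 in vehicle arrays.

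Ptges, the inducible microsomal synthase of prostaglandin E2, was at 5.28, 5.21 and 5.02 in propolis 1, 2 and 3, against 4.99, 5.01 and 4.80 in vehicle 1, 2 and 3. The groups did not overlap, but their closest arrays were 0.0095 apart, and the log2 difference of 0.24 had a 95% confidence interval of -0.17 to 0.64 (limma adjusted p = 0.680). Its dimmer probe went the other way, at 0.58 ± 0.25 in propolis and 0.98 ± 0.40 in vehicle (SD, n = 3 each), and with the mean of both probes the difference was -0.08. The alternative E2 synthases Ptges2 and Ptges3, whose products are also known for other functions, differed by -0.19 (adjusted p = 0.879) and 0.31 (adjusted p = 0.710).

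Tbxas1, the thromboxane synthase gene of platelets and macrophages, was at 3.91, 3.65 and 3.44 in propolis 1, 2 and 3, against 4.47, 3.76 and 4.12 in vehicle 1, 2 and 3. The groups overlapped, since propolis 1 lay above vehicle 2. The log2 difference was -0.45 with a 95% confidence interval of -1.04 to 0.15 (limma adjusted p = 0.574), at -0.33 on slide 1 and -0.68 on slide 2. Without vehicle 1 it was -0.27, and with vehicle 2 and vehicle 3 left out it was -0.80. Macrophage genes averaged 4.64 to 5.14 in propolis and 4.63 to 5.03 in vehicle, so the groups overlapped there too.

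The genes of the D2 branch did not pass. Hpgds, the haematopoietic prostaglandin D synthase of mast cells, type 2 lymphocytes and macrophages, was at 0.21, 0.63 and -0.05 in propolis 1, 2 and 3, against 0.49, 0.14 and 0.11 in vehicle 1, 2 and 3. The groups were interleaved, and the log2 difference of 0.02 had a 95% confidence interval of -0.56 to 0.59 (limma adjusted p = 0.987). Of the 7 mast cell genes tested, 6 had lower means in propolis and 1 a higher mean, and none passed. The list averaged -0.20 to 0.46 in propolis and 0.55 to 0.86 in vehicle. Its 3 brightest genes, given next, include Hdc, the 1 with a higher mean. Mcpt4, a mast cell protease gene, was at 1.01, 1.38 and 2.10 in propolis arrays, against 2.78, 2.53 and 3.05 in vehicle arrays (limma adjusted p = 0.170). Cpa3, a carboxypeptidase gene, was at 0.32, 0.45 and 1.08 in propolis arrays, against 1.81, 1.69 and 1.63 in vehicle arrays (adjusted p = 0.129). Hdc, the histamine-forming enzyme gene, was at 1.85, 0.69 and 1.15 in propolis arrays, against 1.23, -0.22 and -0.0017 in vehicle arrays (adjusted p = 0.553), and its groups overlapped. Type 2 lymphocyte genes averaged -1.99 to -0.87 in propolis and -1.79 to -1.61 in vehicle.

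Ptgds, the lipocalin-type D synthase, an unrelated protein that makes the same product, was at -2.43, -3.53 and -1.60 in propolis 1, 2 and 3, against -2.95, -3.42 and -2.82 in vehicle 1, 2 and 3. Propolis arrays held both the highest and the lowest value. The log2 difference was 0.55 with a 95% confidence interval of -0.63 to 1.73 (limma adjusted p = 0.749), and it was 1.05 without propolis 2 and 0.09 without propolis 3. It was -0.16 with array weights. Its values spread most within propolis of all 10 genes, with an SD of 0.97.

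Hpgd encodes 15-hydroxyprostaglandin dehydrogenase, which starts the breakdown of prostaglandins inside cells. It was at 0.99, 2.28 and 2.01 in propolis 1, 2 and 3, against 2.54, 2.35 and 2.98 in vehicle 1, 2 and 3. All propolis arrays lay below all vehicle arrays, but propolis 2 and vehicle 2 were only 0.07 apart. The log2 difference was -0.86 with a 95% confidence interval of -1.77 to 0.05 (limma adjusted p = 0.452), and its dimmer probe gave -0.80. Without propolis 1 the difference was -0.47. Hpgd is abundant in intestinal epithelium, and vehicle 3, where the intestinal genes averaged 5.09, had the highest value. Propolis 1 had the next highest intestinal average, at -0.10, and the lowest Hpgd value. The part of intestinal transcripts in the Hpgd values was not tested. Without vehicle 3 the difference was -0.68 (adjusted p = 0.536).

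Neither receptor gene among the 10 passed. Ptgir, the prostacyclin receptor, was at 2.08, 2.37 and 2.24 in propolis 1, 2 and 3, against 2.97, 2.92 and 3.07 in vehicle 1, 2 and 3. Every propolis array lay below every vehicle array, and the vehicle arrays lay within 0.14 of each other. The log2 difference was -0.76 with a 95% confidence interval of -1.15 to -0.36, or 1.69-fold higher in vehicle (limma adjusted p = 0.127, and 0.0937 with slide as a block). It was -0.72 on slide 1 and -0.83 on slide 2. Ptgir passed with array weights (adjusted p = 0.0185), which called 3231 genes against 215 in the main comparison, and in no other setting. All 6 endothelial genes had lower means in propolis, but the list averages overlapped. They were 1.09 to 2.28 in propolis and 2.03 to 2.62 in vehicle. Smooth muscle and pericyte averages were 2.23 to 3.57 in propolis and 2.18 to 3.49 in vehicle. Platelet and megakaryocyte averages were -1.67 to -0.66 in propolis and -1.31 to -0.72 in vehicle. The part of these cells in the Ptgir values was not tested.

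Ptger4, a prostaglandin E2 receptor that raises cyclic AMP, was at 1.28, 0.77 and 1.18 in propolis 1, 2 and 3, against 1.15, 0.92 and 1.09 in vehicle 1, 2 and 3. The vehicle arrays all lay inside the range of the propolis arrays. The log2 difference of 0.02 had a 95% confidence interval of -0.46 to 0.51 (limma adjusted p = 0.976), so changes beyond about 1.42-fold in either direction lie outside it.

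**Figure D3:**
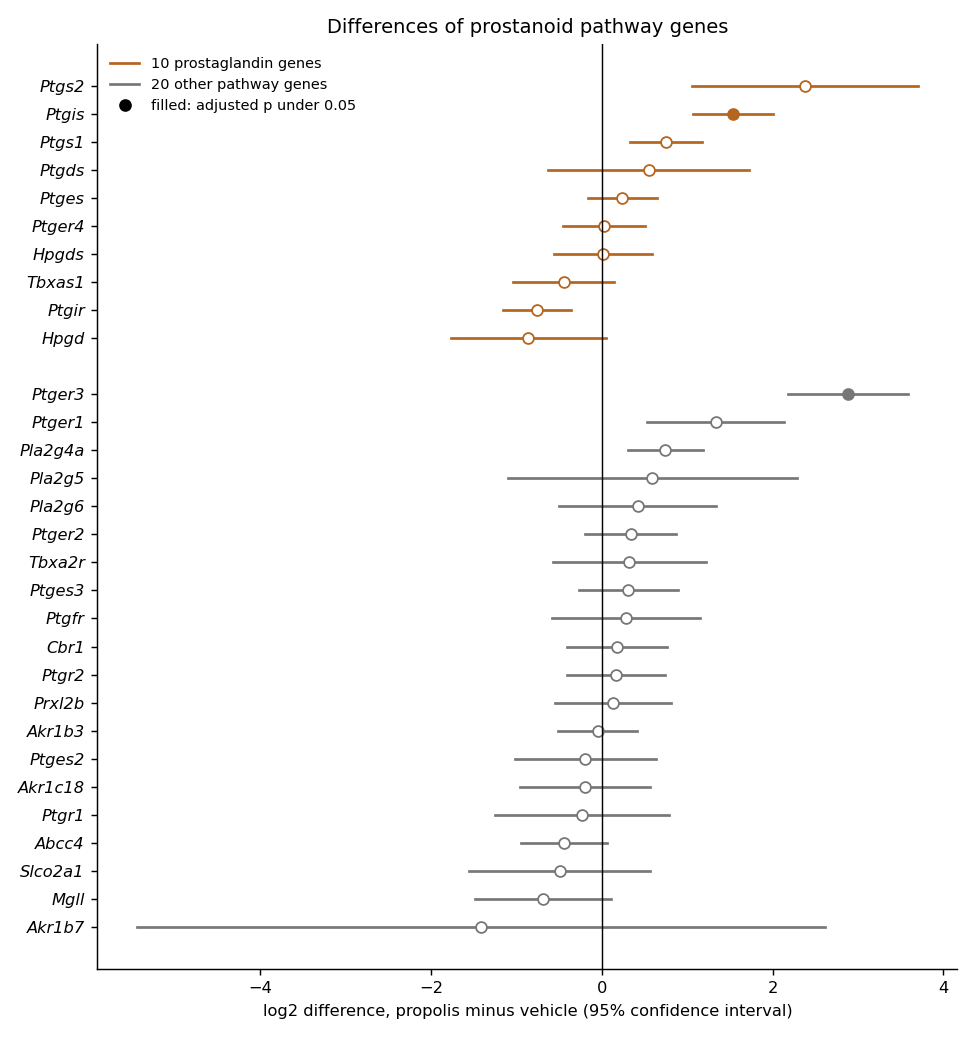
Log2 difference, propolis minus vehicle, with its 95% confidence interval from limma, for the 10 genes (upper block) and for 20 other genes of the pathway (lower block); filled points have an adjusted p under 0.05. Ptgis at 1.53 and Ptger3 at 2.88 are the filled points. The intervals of Ptgs1, Ptgs2, Ptger1 and Pla2g4a also lie wholly above 0 and that of Ptgir wholly below, but none of these genes was called. The intervals are not adjusted for the number of genes tested.

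The remaining genes of the pathway were taken from a list of 22, of which 20 were tested. Limma called 1 of the 20 higher and 0 lower, against 0.722% and 0.113% of all genes. At an unadjusted p under 0.05 stood 3, all higher, against 7.24% of all genes higher. In that list 12 genes had higher and 8 lower means, with a median difference of 0.17. Of all genes tested 12787 had higher and 12990 lower means, with a median difference of -0.0041. The gene called was Ptger3, a prostaglandin E2 receptor that lowers cyclic AMP and, in adipocytes, is known to inhibit lipolysis.

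Ptger3 was at 2.78, 2.05 and 1.92 in propolis 1, 2 and 3, against -0.30, -0.77 and -0.81 in vehicle 1, 2 and 3. The lowest propolis array lay 2.22 above the highest vehicle array. It rose 7.37-fold, a log2 difference of 2.88 with a 95% confidence interval of 2.18 to 3.58 (limma adjusted p = 0.0172, and 0.0229 with slide as a block). Its other probe, also well above background on all 6 arrays, differed by 2.55. The difference was 2.95 on slide 1 and 2.74 on slide 2. Ptger3 stayed called without propolis 1 (adjusted p = 0.0421) or propolis 3 (adjusted p = 0.0455). It was not called without propolis 2, vehicle 1, vehicle 2 or vehicle 3, at adjusted p = 0.0849, 0.0526, 0.0948 and 0.0574. On slide 1 alone the adjusted p was 0.0774. Genes of adipocytes, a cell type known to express Ptger3, averaged 0.30 to 1.36 in propolis arrays and 1.37 to 2.36 in vehicle arrays, with all 5 means lower in propolis, and their part in the Ptger3 values was not tested.

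The other E-type receptor genes did not pass. Ptger1, which signals through calcium, was at -2.09, -2.84 and -3.10 in propolis 1, 2 and 3, against -3.72, -4.45 and -3.87 in vehicle 1, 2 and 3. The groups did not overlap, and the log2 difference was 1.34 (limma adjusted p = 0.172), or 0.58 after normexp background correction. Ptger2, which raises cyclic AMP as Ptger4 does, averaged -0.39 ± 0.23 in propolis and -0.73 ± 0.28 in vehicle (SD, n = 3 each), a difference of 0.34 (adjusted p = 0.655). Whether the 4 receptors differed from each other in their response was not tested.

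**Figure D4:**
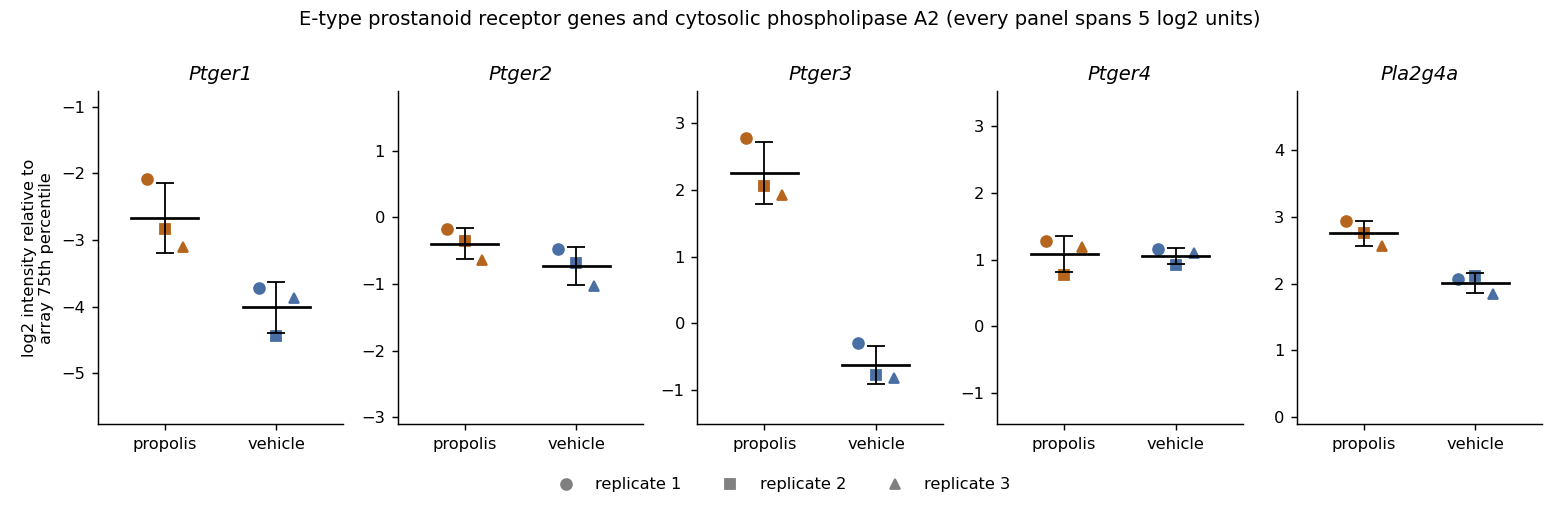
Levels of the 4 prostaglandin E2 receptor genes and of Pla2g4a, as log2 intensity relative to the array's 75th percentile, in the 3 propolis and 3 vehicle arrays; points are arrays, horizontal lines are means and bars are SDs. The groups are farthest apart for Ptger3, with means of 2.25 in propolis and -0.63 in vehicle, and interleaved for Ptger4.

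Upstream of the cyclooxygenases, Pla2g4a, the cytosolic phospholipase A2 that releases arachidonic acid, was at 2.94, 2.76 and 2.57 in propolis 1, 2 and 3, against 2.07, 2.12 and 1.84 in vehicle 1, 2 and 3. The groups did not overlap, and the log2 difference was 0.74 with a 95% confidence interval of 0.30 to 1.19 (limma adjusted p = 0.170, and 0.0782 with slide as a block). Mgll, the monoglyceride lipase that supplies arachidonic acid in some tissues, differed by -0.69 (adjusted p = 0.499). The prostaglandin transporter genes Slco2a1 and Abcc4 differed by -0.50 (adjusted p = 0.747) and -0.45 (adjusted p = 0.488).

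Receptors for the other products were dim or did not pass. Ptgdr and Ptgdr2, the D2 receptors, were not well above background on any of the 6 arrays and were not tested. The thromboxane receptor gene Tbxa2r averaged 0.52 ± 0.71 in propolis and 0.19 ± 0.23 in vehicle (SD, n = 3 each), a difference of 0.32 (limma adjusted p = 0.804). Akr1b7, an aldo-keto reductase with prostaglandin F synthase activity in mouse fat, was at -4.03, -4.09 and -5.92 in propolis 1, 2 and 3, against -4.93, -5.58 and 0.73 in vehicle 1, 2 and 3. Its probe was well above background on only 4 of the 6 arrays, and the log2 difference was -1.42 (limma adjusted p = 0.809). Vehicle 3 was also the array with high intestinal transcripts, and their part in the Akr1b7 value was not tested.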

How the data were processed

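Per the file headers, RNA was hybridised to 1-colour Agilent arrays designed on mm9, and Feature Extraction 10.7.3.1 read the spots. The deposited scanner tables give the intensity of each spot after background subtraction. The deposited series table gives log2 values (medians -3.95 to -3.61), which tracked the log2 scanner intensity almost exactly on each array, and it served as an alternative. How it was scaled is not given in the sources used here. Its differences nearly equalled the main ones, at 1.5334 against 1.5325 for Ptgis. All 214 genes called with it were also called in the main comparison, so it could hardly give another answer.

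From the intensity, non-uniform spots were dropped, log2 was taken, spots of 1 probe were averaged, and the array's 75th percentile over probes was subtracted. A probe entered when at least 3 of 6 arrays had it well above background, which left 34786, and 4 of these lacked a value. Where a gene had several such probes, the brightest was used. Symbols were looked up by unversioned accession in a RefSeq table of GRCm38.p6, which named all but 28446 probes and was used for names and promoters. There were 0 saturated spots.

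The test was limma 3.58.1 under R 4.3.3 (lmFit and eBayes, no block), with Benjamini-Hochberg adjustment over 25777 genes and a threshold of 0.05. The labels call the samples biological replicates but give no number of mice per sample. P-values set each difference against the spread between samples of a group, with a variance estimate that limma shares across genes. How far that spread reflects variation between mice is not known, and the number of arrays limits the precision. The test was also run on simulated data with known changes. Alternatives changed the background correction (normexp on median signals, as the tables hold no mean signals), scaling, filter, probe choice, weights, blocks, threshold and arrays used.

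The members, gene lists and naming rule were chosen with earlier results of these data known. Named genes are all members, E-type receptors, receptors of the members' products, other pathway genes at an unadjusted p under 0.05, up to 3 immediate early genes, up to 3 marker genes of highest mean level in a list, and the 5 profiles closest to the member of lowest p. Mgll, Ptges2, Ptges3, Slco2a1, Abcc4, Akr1b7, Bnc1 and Pdgfra were named after their values were seen.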

Additional observations from a re-analysis of the deposited data

How the results depend on the processing

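Over 20 alternatives, Ptgs1, Ptgs2, Ptgis, Tbxas1, Hpgd and Ptgir, and also Ptger3, Ptger1, Ptger2 and Pla2g4a, kept their direction in all. Ptgis was called in 10 of the 20 and Ptger3 in 14 of the 20. Among the alternatives, the series table values and the setting that kept non-uniform spots each nearly repeated the main comparison. The number of members called was 0 with no filter (Ptgis adjusted p = 0.0608), with the replicate block (0.0718), on slide 1 alone, and with vehicle 2 and vehicle 3 left out together; it was 3 with array weights and 4 at an unadjusted p under 0.05. Leaving out 1 array gave 0 members in each case. Among all genes limma called 215 in the main comparison, 106 with no filter, 3231 with array weights (1674 higher and 1557 lower), 73 with the replicate block, 0 on slide 1 alone (5856 at an unadjusted p under 0.05), 0 with vehicle 2 and vehicle 3 left out together (1362 at an unadjusted p under 0.05), 526 at an adjusted p under 0.1, and 11 to 94 with 1 array left out. The causes were not tested. Signs turned for Hpgds, Ptger4, Ptges and Ptgds, of which none passed. Hpgds was at -0.0048 under quantile normalization, -0.23 with vehicle 2 and vehicle 3 left out together, and -0.17 to 0.17 with 1 array left out. Ptger4 was at -0.018 under quantile normalization, -0.23 with array weights, -0.0091 on slide 1, -0.072 with vehicle 2 and vehicle 3 left out together, and -0.076 to 0.18 with 1 array left out. Ptges was at -0.084 with the mean of probes and Ptgds at -0.16 with array weights. Median scaling moved the median difference of all genes to 0.15, against -0.0041; on that scale Ptgis differed by 1.69, Ptgs2 by 2.54, Ptgir by -0.60 and Hpgd by -0.70. Replicate numbers are shared between groups, and deviations of same-numbered samples correlated at 0.036, 0.29 and 0.14. Propolis 2 and propolis 3 correlated best with the vehicle sample of their own number, and propolis 1 with vehicle 3 (0.098). The labels do not say whether the numbers pair the samples, so they were not taken as pairs. With the replicate block the limma adjusted p of Ptgs2 was 0.0593.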

Other observations

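The ratio of one member to another within an array does not depend on how arrays are scaled, and 3 such ratios were formed after the values had been seen. Set to a vehicle mean of 0, the log2 ratio of Ptgis to Tbxas1, the synthases of prostacyclin and thromboxane, was 1.84, 1.93 and 2.17 in propolis 1, 2 and 3, against -0.19, 0.49 and -0.31 in vehicle 1, 2 and 3. The log2 ratio of Ptgs2, the inducible cyclooxygenase, to the degrading enzyme Hpgd was 4.67, 2.17 and 2.89 in propolis arrays, against 1.21, -0.35 and -0.86 in vehicle arrays. The log2 ratio of Ptgis to the prostacyclin receptor Ptgir was 2.54, 2.09 and 2.24 in propolis arrays, against 0.19, 0.20 and -0.38 in vehicle arrays. The differences were 1.98, 3.25 and 2.29. They are given with no test, since the pairs were chosen on these values, and for Ptgs2 with Hpgd and Ptgis with Ptgir the genes already stood apart in opposite directions. A ratio shows unequal change and not which of its genes moved.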
